A study of Mus musculus with 76 samples.

Results

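Of 75 macrophages sorted singly from the atrioventricular (AV) node, the part of the mouse heart that passes the beat on to the ventricles, 45 carried the Lyve1 transcript at 100 CPM (counts per 1000000) or more. These Lyve1 cells, selected on their measured Lyve1 level, were divided by their measured level of H2-Aa, the gene of the α chain of the MHC class II molecule I-A: 25 cells held H2-Aa at 100 CPM or more (H2-Aa-high cells) and 20 held less (H2-Aa-low cells). Of the 30 cells with Lyve1 below 100 CPM, 28 were H2-Aa-high and 2 were H2-Aa-low. All cells came from wild-type (WT) C57BL/6J mice, and the labels name no treatment. Hearts were perfused, the triangle of Koch was dissected and digested with collagenases, DNase and hyaluronidase, and living cells with little lineage marker staining, strong F4/80, CD11b and CD45 staining and low or intermediate Ly6C were sorted. Cells were captured on a Fluidigm C1 chip, and full-length cDNA was sequenced without molecular identifiers and without strand, so a gene and an antisense partner cannot be told apart. The labels name no animal, age, chip or batch, so all cells are 1 sample. No test between the groups was therefore made, differences are described by their size, and a mean ± SD gives the spread over cells.

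MHC class II molecules present peptides from engulfed material to CD4+ T cells. Their α and β chains assemble with the invariant chain Cd74, the H2-DM heterodimer exchanges the invariant chain's remnant for a peptide, H2-O restrains H2-DM, and the co-activator Ciita switches the genes on through the X and Y boxes of their promoters. Lyve1 is a hyaluronan receptor that marks resident macrophages of the heart and other tissues, and also lymphatic endothelium.

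The promoters of H2-Aa, H2-Eb1 and H2-DMb1, genes of an α chain, a β chain and a chain of the exchange factor, are shown to illustrate these boxes. Each line is the 150 bases before the gene's start site, 5′ to 3′ on its own strand, from RefSeq on GRCm38.p6, and capitals mark GATTGG, the core of the Y box, and AGNNAC followed directly by NGAT, a core of the X box. The windows are chr17:34287824-34287973 on the minus strand for H2-Aa, and chr17:34305717-34305866 and chr17:34153041-34153190 on the plus strand for H2-Eb1 and H2-DMb1.
H2-Aa: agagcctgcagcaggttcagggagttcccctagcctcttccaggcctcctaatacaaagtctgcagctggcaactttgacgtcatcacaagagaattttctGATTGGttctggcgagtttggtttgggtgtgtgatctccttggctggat
H2-Eb1: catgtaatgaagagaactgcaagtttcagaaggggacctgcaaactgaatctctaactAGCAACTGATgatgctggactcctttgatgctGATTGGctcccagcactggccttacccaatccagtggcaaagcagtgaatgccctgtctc
H2-DMb1: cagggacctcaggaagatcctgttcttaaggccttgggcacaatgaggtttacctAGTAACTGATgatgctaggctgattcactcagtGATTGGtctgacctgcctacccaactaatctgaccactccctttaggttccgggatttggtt
Matches were sought on both strands from 250 bases before to 50 after the start site. GATTGG was present in 16.1% of 32851 such windows of all genes and the X box core in 2.68%. Of 11 class II genes looked up, 8 had a window used, and Cd74, H2-Ab1 and Ciita were not among them. Cd74 lies on another chromosome than the genes used and was left out by choice, so the counts do not cover it. All 8 genes used held the first motif and 5 held the second, in 8 and 5 of their 9 windows. Both motifs were taken from what is known of class II promoters, so these counts illustrate and do not test. The X box match of H2-Ob lay 33 bases after its start site, on the opposite strand. An X box core followed within 40 bases by a Y box core on the gene's strand occurred in 11 windows, or 0.0335%. The X and Y box matches of H2-Oa, 141 and 44 bases before its start site, were further apart than that. The H2-Aa window held no match to the X box core used here, which does not show that it lacks an X box. A match describes the letters only.

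The values that chose the cells are given as a description. Lyve1 was 141.8 CPM in the lowest Lyve1 cell and 69.1 CPM in the highest cell left out. Within the Lyve1 cells it had a lowest, median and highest value of 141.8, 955 and 5146 CPM in H2-Aa-high cells, and of 146.7, 1784 and 6709 CPM in H2-Aa-low cells. H2-Aa ran from 105.4 over a median of 5526 to 23055 CPM in H2-Aa-high cells, and from 0 over 8.05 to 42.6 CPM in H2-Aa-low cells. Few cells lay near the threshold: the H2-Aa-high cells next above the lowest held 131.0 and 535 CPM, 22 of 25 held 1000 CPM or more, and the H2-Aa-low cell next below the highest held 28.5 CPM. Of the H2-Aa-low cells 19 of 20 were above 0, and 8 reached 10 CPM. The 28 H2-Aa-high cells outside the Lyve1 cells held 5900 to 44380 CPM H2-Aa, a range that begins above the median of the H2-Aa-high Lyve1 cells.

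**Figure D1:**
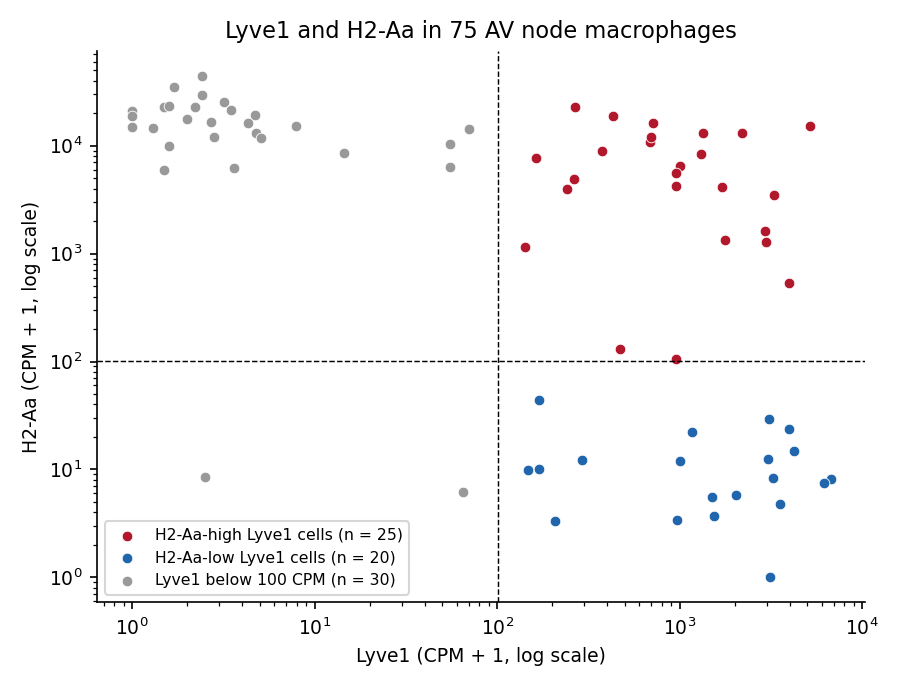
Lyve1 (horizontal) and H2-Aa (vertical) in each of 75 cells, as CPM + 1 on log axes, with dashed lines at 100 CPM. The 25 H2-Aa-high Lyve1 cells (red) lie at 105.4 CPM H2-Aa or more, the 20 H2-Aa-low Lyve1 cells (blue) at 42.6 CPM or less, and the 30 other cells (grey) left of the Lyve1 threshold.

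Both groups carried macrophage transcripts at similar depth. Estimated reads per cell were 259568 to 6292532 (median 2462467) in H2-Aa-high cells and 385646 to 4796390 (median 2148049) in H2-Aa-low cells, and genes above 0 had medians of 3208 and 3175. Summed CPM of 14 macrophage markers, Csf1r and Emr1 (F4/80) among them, ran from 16584 to 52526 in H2-Aa-high cells and from 23708 to 65766 in H2-Aa-low cells. Of 8 lymphatic endothelium markers Pdpn alone had values, at no more than 29.6 CPM in H2-Aa-high cells and 106.9 CPM in H2-Aa-low cells, and its median was 0 in both. Summed dendritic cell markers (9 of 16 with values) ran from 2.00 to 4015 CPM (median 605) in H2-Aa-high cells and from 0 to 3338 CPM (median 135) in H2-Aa-low cells. Itgax, which encodes CD11c, was 0 in all H2-Aa-high cells and at most 1.20 CPM in H2-Aa-low cells. Other dendritic cell markers had values: Irf4 reached 100 CPM in 5 of 25 H2-Aa-high and 1 of 20 H2-Aa-low cells, and Cd209a in 2 and 0. Batf3 reached it in 2 and 2, Zbtb46 in 1 and 2, and Siglech in 3 and 4. Doublets were not called. The part of these markers in the differences below was not tested. The libraries of transcriptomes 13 and 19 (r = 0.978 on log2(CPM + 1), against at most 0.421 in 2849 other pairs) differed little and were counted as 1 cell, which is H2-Aa-low.

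The H2-Aa split was accompanied by 5 of 9 other MHC class II genes tested and by a small share of all other genes. For every gene the ratio of the group means, each plus 10 CPM, was taken, together with the percentage of all pairs of 1 H2-Aa-high and 1 H2-Aa-low cell in which the H2-Aa-high cell was higher (ties counted 50%). A gene was called higher at a ratio of 2 or more and 70% of pairs or more, and lower at a ratio of 0.5 or less and 30% of pairs or fewer. Of 8349 genes tested, 32 (0.383%) were higher and 21 (0.252%) were lower in H2-Aa-high cells. At these shares, 0 calls in a short list of genes says little about its genes. The ratio alone was passed by 1753 genes upward and 1631 downward, and the percentage of pairs alone by 46 and 31. The median gene had a log2 ratio of 0.01 and 50.2% of pairs. Both counts depended on the settings: over the alternatives tried, 14 to 164 genes were higher and 8 to 185 lower, with the largest counts in the smallest groups of cells.

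**Figure D2:**
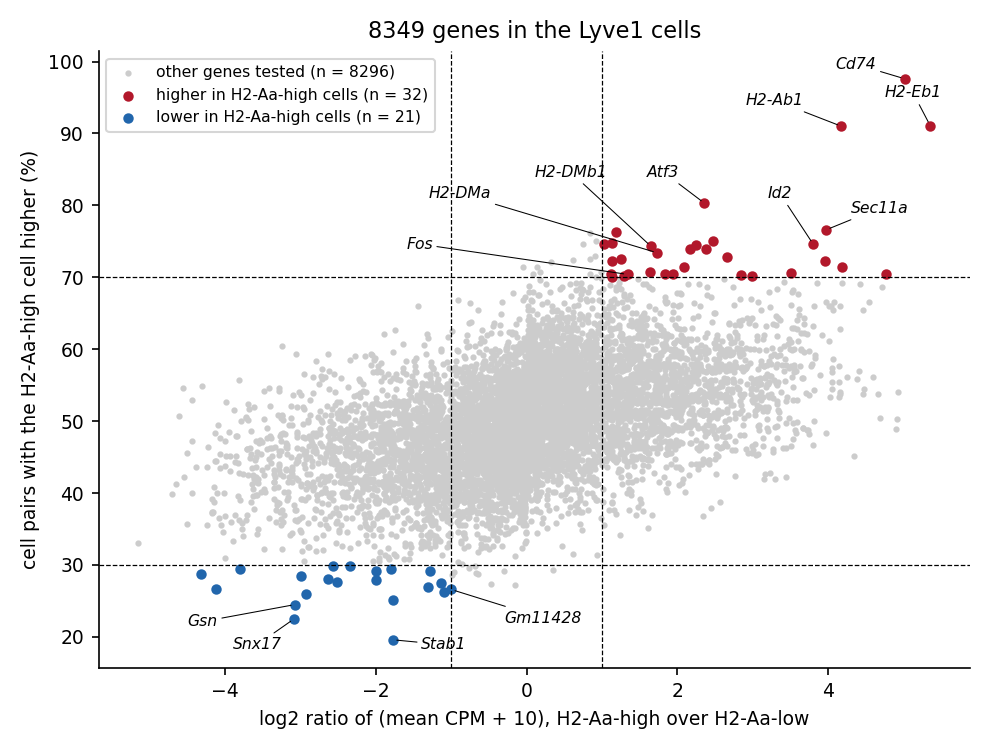
Log2 ratio of (mean CPM + 10), H2-Aa-high over H2-Aa-low (horizontal), against the percentage of cell pairs in which the H2-Aa-high cell was higher (vertical), 1 point per gene, with dashed lines at the thresholds. Cd74, H2-Ab1 and H2-Eb1 stand apart at over 90% of pairs, and Stab1 has the lowest percentage, at 19.6%.

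Of 9 MHC class II genes tested besides H2-Aa, 5 were higher and 0 lower in H2-Aa-high cells, where 0.383% of all genes were higher. The median log2 ratio of the 9 was 1.87, against 0.01 over all genes. That class II genes vary together in these cells was known before the cells were divided, so their count is not independent of the choice of H2-Aa. Cd74, the invariant chain, had a lowest, median and highest value of 627, 12785 and 38391 CPM in H2-Aa-high cells, and of 0.5, 178 and 2679 CPM in H2-Aa-low cells. The ranges overlapped, but the H2-Aa-high cell was higher in 97.6% of pairs. Means were 15216 ± 11719 CPM in H2-Aa-high cells (n = 25) and 460 ± 713 CPM in H2-Aa-low cells (n = 20), a log2 ratio of 5.02. At 100 CPM or more, Cd74 was present in 25 of 25 H2-Aa-high cells (100%, exact 95% Clopper-Pearson interval 86.3 to 100%) and in 11 of 20 H2-Aa-low cells (55%, 31.5 to 76.9%). These intervals cover the counting of cells only.

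The β chains followed. H2-Ab1, the partner of H2-Aa in I-A, had 37.7, 6580 and 24276 CPM (lowest, median, highest) in H2-Aa-high cells, and 1.40, 70.7 and 2270 CPM in H2-Aa-low cells. Means were 7912 ± 7425 and 428 ± 746 CPM in these groups, with a log2 ratio of 4.18 and 91.0% of pairs. H2-Eb1, the β chain of I-E, had 1.80, 2745 and 22253 CPM in H2-Aa-high cells, and 0.5, 3.30 and 1725 CPM in H2-Aa-low cells, with a log2 ratio of 5.36 and 91.1% of pairs. It reached 100 CPM in 20 of 25 H2-Aa-high cells and in 2 of 20 H2-Aa-low cells, so most H2-Aa-low cells were near 0 for it. For H2-Ab1 the same counts were 23 of 25 and 8 of 20. These values are of transcripts, and class II protein was not measured.

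The subunits of H2-DM differed less. H2-DMa had 0.7, 671 and 5269 CPM in H2-Aa-high cells, and 0, 15.6 and 1500 CPM in H2-Aa-low cells, with means of 926 ± 1217 and 271 ± 495 CPM, a log2 ratio of 1.73 and 73.4% of pairs. H2-DMb1 had 0, 56.6 and 1086 CPM in H2-Aa-high cells, and 0, 0.95 and 961 CPM in H2-Aa-low cells, with means of 244 ± 338 and 70.9 ± 218 CPM, a log2 ratio of 1.65 and 74.3% of pairs. Both groups held cells on either side of 10 CPM for each subunit: H2-DMa reached it in 19 of 25 H2-Aa-high and 10 of 20 H2-Aa-low cells, and H2-DMb1 in 17 and 5. H2-DMb2 and H2-Oa stayed below 3 CPM in all Lyve1 cells. H2-DMb1 and H2-DMb2 are closely related copies whose reads may have been divided or dropped in counting, so their values are uncertain. H2-Ob, the other H2-O chain, reached 10 CPM in 2 of 25 H2-Aa-high cells and 0 of 20 H2-Aa-low cells.

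Ciita, the co-activator, was above 0 in 11 of 25 H2-Aa-high and 9 of 20 H2-Aa-low cells but was seldom high. It reached 100 CPM in 4 of 25 H2-Aa-high cells (16%, 4.54 to 36.1%), at up to 6270 CPM, and in 0 of 20 H2-Aa-low cells (0%, 0 to 16.8%), whose highest value was 2.70 CPM. Medians were 0 in both groups, and with 54.0% of pairs it was not called despite a log2 ratio of 4.93. Its brightest cell, transcriptome 18, held 15298 CPM H2-Aa, while transcriptome 81, with the most H2-Aa, was at 0 for Ciita. Of 12 genes of class II transcription and interferon γ signalling, 0 were called, where 0.383% of all genes were higher and 0.252% lower. The median log2 ratio of the 12 was 0.16. Irf1, a transcription factor induced by interferon γ, came nearest, at medians of 78.0 and 1.05 CPM in H2-Aa-high and H2-Aa-low cells, a log2 ratio of 2.29 and 69.0% of pairs. Irf1 passed the rule in 7 of 16 alternatives, among them H2-Aa split at 10 or at 1000 CPM.

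**Figure D3:**
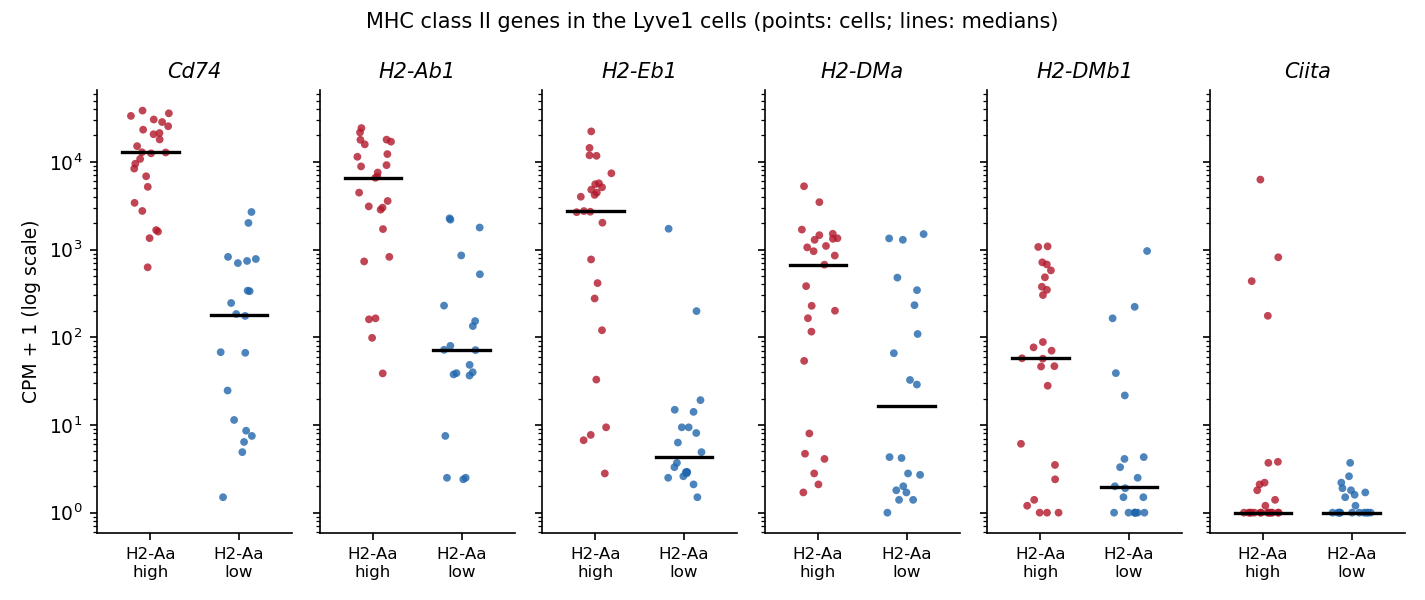
The MHC class II genes Cd74 to Ciita in H2-Aa-high (red, left, n = 25) and H2-Aa-low (blue, right, n = 20) Lyve1 cells, as CPM + 1 on a log axis, 1 point per cell, with lines at medians. Cd74, H2-Ab1 and H2-Eb1 separate most cells, H2-DMa and H2-DMb1 overlap widely, and Ciita is at or near 0 in most cells of both groups.

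Within single cells, most H2-Aa-high cells held several other class II genes at 100 CPM or more, whereas H2-Aa-low cells varied. Of 5 partner genes (Cd74, H2-Ab1, H2-Eb1, H2-DMa and H2-DMb1), 4 or 5 reached 100 CPM in 13 and 6 of the 25 H2-Aa-high cells, whereas in H2-Aa-low cells no cell had more than 3, and 4 cells had 0, 6 had 1, 5 had 2 and 5 had 3. Without H2-Aa, which divided the groups, the class II genes together took 0.0806 to 7.98% of CPM in H2-Aa-high cells (median 2.43%, mean 2.92 ± 2.45) and 0.0008 to 0.444% in H2-Aa-low cells (median 0.0767%, mean 0.133 ± 0.137), so the ranges overlapped. In the H2-Aa-high cells with Lyve1 below 100 CPM this share was 1.55 to 13.0% (median 6.22%), which overlaps that of the H2-Aa-high Lyve1 cells.

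Several H2-Aa-low cells held 1 or more class II genes at a level seen in H2-Aa-high cells. Transcriptome 45 had 2270 CPM H2-Ab1 beside 21.3 CPM H2-Aa, and transcriptome 78 had 2189 CPM H2-Ab1 beside 13.7 CPM. Transcriptome 82 had 1725 CPM H2-Eb1 and 2679 CPM Cd74 beside 9.20 CPM H2-Aa, and transcriptome 42 had 1500 CPM H2-DMa beside 4.80 CPM. At the other end, transcriptome 63, H2-Aa-high at 131.0 CPM, reached 100 CPM for Cd74 only of the 5 partner genes. In transcriptome 22, with 1138 CPM H2-Aa, the same was true. Across cells of a group, the Spearman correlation with H2-Aa was 0.918 for Cd74, 0.918 for H2-Eb1, 0.869 for H2-Ab1, 0.618 for H2-DMa and 0.329 for H2-DMb1 among the 25 H2-Aa-high cells. Among the 20 H2-Aa-low cells it was 0.432, 0.713, 0.579, 0.150 and 0.469 for the same genes. These are descriptions: all genes of a cell share its library and depth. Between Lyve1 and H2-Aa the Spearman correlation was -0.158 in H2-Aa-high cells and -0.03 in H2-Aa-low cells.

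Genes of antigen processing did not pass the rule, though Ctsa lay at its edge. Of 11 antigen-processing proteases and inhibitors 0 were called, with a median log2 ratio of 0.18, where 0.383% of all genes were higher and 0.252% lower. At those shares, 0 calls in lists of this size do not set their genes apart from all genes. Cathepsin S (Ctss), which degrades the invariant chain, had medians of 2403 CPM in H2-Aa-high cells and 1637 CPM in H2-Aa-low cells (61.8% of pairs), and the protective protein Ctsa 2248 and 283 CPM (69.9% of pairs, log2 ratio 0.98). Ctsa passed the rule in 5 of 16 alternatives, among them H2-Aa split at 1000 CPM and thinning to 250000 reads. Of 20 lysosome genes 0 were called. Hexa, a β-hexosaminidase subunit, had 73.0% of pairs but a log2 ratio of 0.91, short of the threshold. None of 20 MHC class I and immunoproteasome genes (median log2 ratio 0.17) or of 13 co-stimulation genes (1.16) was called.

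Genes of tissue-resident macrophages were held by both groups, and Stab1 alone differed by the rule. Of 24 tissue-resident genes 0 were higher and 1 was lower in H2-Aa-high cells, against 0.383% higher and 0.252% lower of all genes. Their median log2 ratio was -0.30, and 20 of 24 had a ratio below 1, against 4080 of all 8349 genes tested. Stab1, a scavenger receptor, had 0.3, 252 and 4607 CPM (lowest, median, highest) in H2-Aa-high cells, and a median of 1536 and a highest value of 7388 CPM in H2-Aa-low cells, all 20 of which reached 10 CPM. Means were 605 ± 973 and 2099 ± 1950 CPM in these groups, with a log2 ratio of -1.78 and 19.6% of pairs, the lowest percentage of any gene tested. The ranges overlapped, and Stab1 reached 100 CPM in 18 of 25 H2-Aa-high cells (72%, 50.6 to 87.9%) and 17 of 20 H2-Aa-low cells (85%, 62.1 to 96.8%). Within H2-Aa-high cells its Spearman correlation with H2-Aa was -0.06, and within H2-Aa-low cells -0.26. In H2-Aa-high cells with Lyve1 below 100 CPM its median was 4.55 CPM. Among the Lyve1 cells with fewer genes above 0 than the median (12 H2-Aa-high and 10 H2-Aa-low) Stab1 was not called.

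Other resident genes did not pass the rule. Cd209g, a C-type lectin, had a log2 ratio of 4.16 but 53.8% of pairs, reaching 100 CPM in 5 of 25 H2-Aa-high and 0 of 20 H2-Aa-low cells. Folr2, a folate receptor, had medians of 1953 CPM in H2-Aa-high cells and 2499 CPM in H2-Aa-low cells (36.2% of pairs). The phosphatidylserine receptor Timd4 had 75.4 and 91.4 CPM (45.3%), the mannose receptor Mrc1 3837 and 2335 CPM (59.6%), and the coagulation factor gene F13a1 7532 and 9830 CPM (36.4%). Of 14 monocyte-derived genes 0 were called, where 0.383% of all genes were higher and 0.252% lower. The median log2 ratio of the 14 was -0.02. Ccr2, the chemokine receptor of monocytes, reached 100 CPM in 5 of 25 H2-Aa-high cells and 2 of 20 H2-Aa-low cells; its log2 ratio of 2.70 came with 52.8% of pairs and medians of 7.30 and 6.40 CPM. With H2-Aa split at 10 CPM, where 0.695% of all genes were higher and 0.647% lower, Ccr2 and Cd52 were higher and S100a6 was lower. S100a6 was also lower in the cells with fewer genes above 0 than the median. Over all 75 cells, where 53 H2-Aa-high were set against 22 H2-Aa-low cells that include these 45, 27 genes (0.323%) were higher and 16 (0.192%) lower. There the resident list had 3 lower genes (Stab1, Ninj1 and Ltc4s) and a median log2 ratio of -0.89, and the monocyte-derived list 1 higher gene (Cd52) and a median of 0.61.

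**Figure D4:**
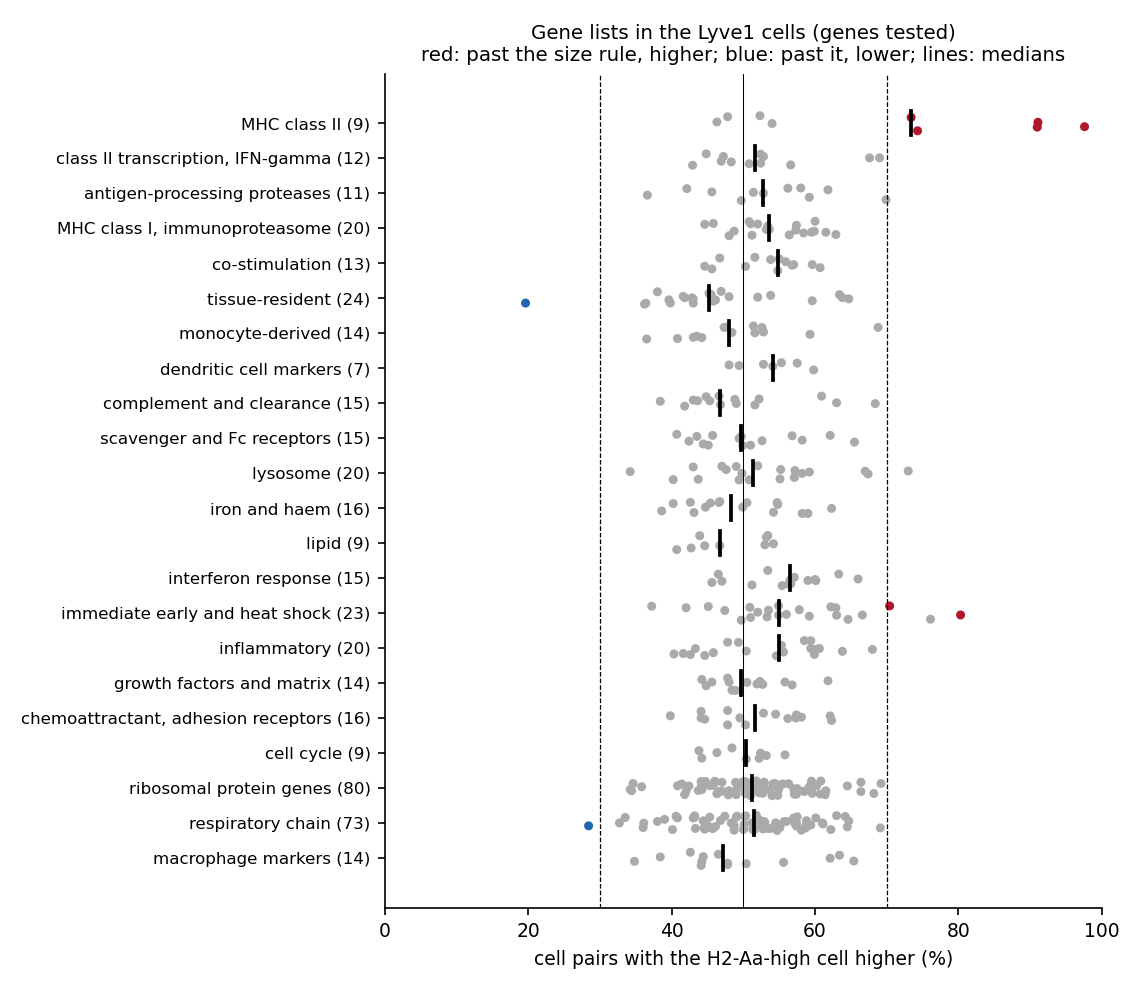
Percentage of cell pairs in which the H2-Aa-high cell was higher, 1 point per gene, for each list with the number of genes tested in brackets; red points were called higher and blue points lower, lines are medians and dashed lines the thresholds. The median of MHC class II lies right of those of the other lists drawn, and the tissue-resident list has 1 blue point, Stab1.

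Among genes of early transcriptional responses, Atf3 and Fos were higher in H2-Aa-high cells. The immediate early and heat shock list (23 genes tested) had 2 higher and 0 lower genes, with a median log2 ratio of 0.02. Of all genes tested, 0.383% were higher and 0.252% lower. Atf3, a stress-induced transcription factor, had 0.2, 261 and 6410 CPM (lowest, median, highest) in H2-Aa-high cells, and 0, 1.40 and 2598 CPM in H2-Aa-low cells. Means were 848 ± 1442 and 157 ± 580 CPM in these groups (log2 ratio 2.36, 80.3% of pairs), and 10 CPM was reached by 17 of 25 and 3 of 20 cells. Fos, a subunit of the transcription factor AP-1, had 1.20, 2344 and 19992 CPM in H2-Aa-high cells, and 0.3, 559 and 6483 CPM in H2-Aa-low cells (log2 ratio 1.34, 70.4% of pairs). The ranges overlapped for both genes. The Spearman correlation with H2-Aa was near 0 within H2-Aa-high cells for Atf3 and Fos (-0.04 and 0.03) and 0.468 and 0.445 within H2-Aa-low cells. Egr1 did not pass, at medians of 914 and 21.2 CPM in H2-Aa-high and H2-Aa-low cells and 66.6% of pairs, nor did Jun at 64.6%, and the chaperone gene Dnajb1 had 76.1% of pairs but a log2 ratio of 0.84. In the cells with at least as many genes above 0 as the median Lyve1 cell (13 H2-Aa-high and 10 H2-Aa-low), 8 genes of this list were higher, Jun, Egr1 and Dnajb1 among them, where 1.80% of all genes were higher and 2.22% lower. In the cells with fewer genes (12 and 10), Atf3 alone was higher, Klf2 was lower and Fos was not called, where 1.96% of all genes were higher and 1.71% lower. Over all cells, Egr1 and Atf3 were higher and Fos was not called, where 0.323% of all genes were higher and 0.192% lower. Fos fell outside the 2 members per list that the naming rule takes and is named because it was called.

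Most of the remaining called genes were on no list and were at 0 in many cells. Of the 12 higher genes with a mean of at least 50 CPM and the largest log2 ratio, 9 lay outside MHC class II: Antxr2, Glt25d1, Sec11a, Ankrd44, Id2, Ephx1, Zfp788, Arpp19 and Gpr160. Sec11a, a subunit of the signal peptidase, had medians of 30.2 and 0 CPM and reached 100 CPM in 11 of 25 H2-Aa-high and 0 of 20 H2-Aa-low cells (log2 ratio 3.97, 76.6% of pairs). Id2, an inhibitor of basic helix-loop-helix transcription factors, had medians of 59.9 and 0.15 CPM and reached 100 CPM in 12 of 25 and 1 of 20 cells in the same order (log2 ratio 3.80, 74.6% of pairs). Antxr2, an anthrax toxin receptor that binds collagen, reached 100 CPM in 7 of 25 and 0 of 20 cells, and Arpp19, a phosphatase inhibitor, in 11 and 2. Each of these genes was at 0 in at least 1 cell of either group. Zfp788 owed its mean of 105 CPM largely to a single cell at 2346 CPM. Its call was kept in 7 of 16 alternatives, those of Antxr2 and Ephx1 in 10 and that of Glt25d1 in 11.

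The lower genes with the largest ratios included Zfp266, Rcor1, Idh1, Snx17, Gsn, Ndufb5, D14Abb1e, Creld2, B3galnt1, Tnfrsf1b and Nop56. Idh1, cytosolic isocitrate dehydrogenase, reached 100 CPM in 4 of 25 H2-Aa-high and 10 of 20 H2-Aa-low cells, with medians of 3.90 and 138 CPM (log2 ratio -3.81, 29.4% of pairs). Snx17, a sorting nexin of endosomal recycling, reached 100 CPM in 1 of 25 and 7 of 20 cells (log2 ratio -3.09, 22.5% of pairs), and D14Abb1e in 2 and 9. Tnfrsf1b, the tumour necrosis factor receptor TNFR2, reached 100 CPM in 3 of 25 H2-Aa-high cells and in 4 of 20 H2-Aa-low cells. Gsn, which encodes gelsolin and was the only gene with values on the fibroblast list, reached 100 CPM in 1 of 25 and 6 of 20 cells. Ndufb5 was the 1 lower gene among 73 respiratory chain genes, where 0.252% of all genes were lower. Its call, like those of Zfp266 and Tnfrsf1b, was kept in 10 of 16 alternatives.

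**Figure D5:**
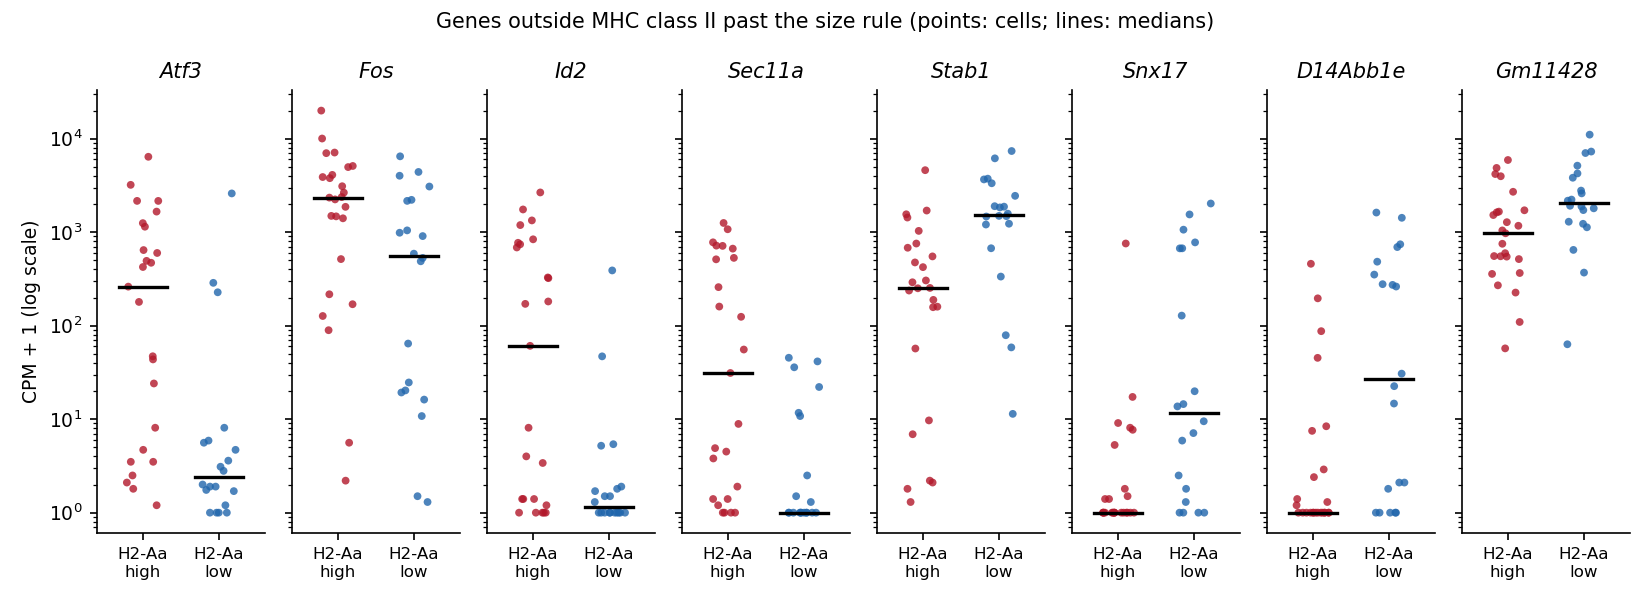
Called genes outside MHC class II in H2-Aa-high (red, left, n = 25) and H2-Aa-low (blue, right, n = 20) Lyve1 cells, as CPM + 1 on a log axis, 1 point per cell, with lines at medians. Atf3, Fos, Id2 and Sec11a were higher in H2-Aa-high cells and Stab1, Snx17, D14Abb1e and Gm11428 lower, and the groups overlap for each gene. Gm11428 lay at the edge of the rule, with a ratio of 0.499 and 26.6% of pairs, and its call was not followed over the alternatives.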

How the data were processed

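The table the authors deposited holds 76 single-cell libraries of 1 group and 9235 genes, in CPM with 1 decimal. Per the submitters' processing notes the tools included HTSeq 0.6.0 and STAR 2.3.0 and the genome build was mm9. No annotation is named in the sources used here. Symbols were matched by spelling (8378 current, 743 older, 114 unmatched), and older ones are printed as deposited. The RefSeq promoters are of another build than the files and share no coordinates with them. Genes above 0 in at least 8 of 75 cells were tested. Reads per cell are estimates from the CPM value of 1 read, checked on simulated data. The ratio was checked on shuffled values multiplied by known factors, which does not measure how often the size rule calls a gene falsely. No count model was fitted, because the cells are 1 sample. Named are all class II genes tested, the 12 called genes per direction with the largest ratio at a mean of 50 CPM or more, and the 2 largest ratios per list. Of the list genes a selection is printed, and an item that this rule takes is not reported here. Others named were chosen after their values were seen. The cells, lists and thresholds were chosen with earlier results of these data known. Computation used Python 3.11.15, numpy 2.4.6, pandas 2.3.3 and scipy 1.17.1.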

Additional observations from a re-analysis of the deposited data

How the results depend on the processing

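No paired analysis was possible because the cells are 1 sample with no numbers shared between groups. Over 16 alternatives, 1 of them (without the 2 H2-Aa-high cells nearest the threshold) chosen after seeing the data, the calls of Cd74, H2-Ab1, H2-Eb1 and Atf3 were kept in all, and that of Stab1 in 15, lost in cells with fewer genes above 0 than the median Lyve1 cell. H2-DMa was lost when H2-Aa was split at 10 CPM and in cells with more genes, H2-DMb1 in cells with fewer genes, and Fos in 4: with 13 and 19 as 2 cells, after thinning to 250000 reads, with H2-Aa split at 10 CPM and in cells with fewer genes. The counts of higher and lower genes moved most: 58 and 54 with H2-Aa split at 10 CPM, 83 and 78 with Lyve1 at 500 CPM or more, 19 and 12 with a pseudocount of 100 CPM, 14 and 8 with values below 10 CPM set to 0, and 18 and 12 after thinning. In smaller groups they were larger, 164 and 143 in cells with fewer genes (12 against 10 cells) and 150 and 185 in cells with more genes (13 against 10 cells). Among the other genes named as higher, Sec11a, Ankrd44 and Arpp19 kept their call in 14 alternatives, Id2 in 13 and Gpr160 in 12. Glt25d1 kept it in 11, Antxr2 and Ephx1 in 10, and Zfp788 in 7. Of those named as lower, D14Abb1e kept its call in 15, Snx17 in 14 and Rcor1 in 13. Gsn, Idh1, Creld2 and B3galnt1 kept it in 12, Nop56 in 11, and Zfp266, Ndufb5 and Tnfrsf1b in 10. The class II median log2 ratio was 3.65 with Lyve1 at 10 CPM or more and 4.21 with a pseudocount of 1 CPM. B3galnt1 turned to 1.38 with H2-Aa split at 10 CPM, and Nop56 to 0.45 with Lyve1 at 10 CPM or more and 1.50 in cells with fewer genes; the cause was not tested.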

Other observations

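Some genes were bright in a few H2-Aa-high Lyve1 cells without passing the rule. Ifit3, an interferon-induced gene, reached 100 CPM in 7 of 25 H2-Aa-high cells (28%, exact 95% interval 12.1 to 49.4%) and 0 of 20 H2-Aa-low cells (0%, 0 to 16.8%), with 66.0% of pairs, and in 0 of the 28 H2-Aa-high cells with Lyve1 below 100 CPM. Gbp2, an interferon-induced GTPase, reached it in 3 of 25 H2-Aa-high and 0 of 20 H2-Aa-low Lyve1 cells, and in 3 of those 28 cells. The 15 interferon response genes tested had 0 calls, where 0.383% of all genes were higher and 0.252% lower. The median log2 ratio of the 15 was 0.81. Irf4, a transcription factor on the dendritic cell list, reached 100 CPM in 5 of 25 H2-Aa-high and 1 of 20 H2-Aa-low cells, and Mcm4, a replication helicase subunit, in 5 and 0. The C-type lectin Cd209a reached it in 2 of 25 and 0 of 20 Lyve1 cells, and in 4 of the 28 H2-Aa-high cells with Lyve1 below 100 CPM. The 7 dendritic cell markers tested had a median log2 ratio of 1.69, a median of 54.1% of pairs and 0 calls, and 5 had a ratio above 1.

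In the other direction, S100a6, a calcium-binding protein of the monocyte-derived list, reached 100 CPM in 3 of 25 H2-Aa-high and 10 of 20 H2-Aa-low cells, with medians of 0.8 and 95.3 CPM and 36.5% of pairs, and was not called. Klf2, a transcription factor of the immediate early list, reached it in 7 of 25 and 10 of 20 cells (37.2% of pairs).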
